A study of Mus musculus with 6 samples.

Results

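The 10 chemokine ligands Cxcl1, Cxcl2, Cxcl10, Cxcl12, Cxcl14, Cx3cl1, Ccl2, Ccl3, Ccl4 and Ccl22 were followed gene by gene in sorted mouse brain astrocytes. They were chosen by symbol from the 45777 genes of the deposited table, and each symbol matched 1 gene. The question was which of these ligands were abundant in the sorted cells, and which differed between hyperglycemic and normoglycemic mice. RNA sequencing had been performed on 3 samples from streptozotocin-treated mice (STZ, labelled hyperglycemic) and 3 samples from vehicle-treated mice (labelled normoglycemic). Every sample was a pool of cells from 3 mice.

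All samples came from male Aldh1l1-CreERT2; tdTomato fl/fl mice on the C57BL/6 background, which the labels give as genotype WT. All mice received tamoxifen, so that cells expressing Aldh1l1, an astrocyte gene, became labelled with the red fluorescent protein tdTomato. At 8 weeks of age the STZ mice received a single intraperitoneal injection of streptozotocin, which kills pancreatic beta cells, in sodium citrate buffer, and the vehicle mice received the buffer alone. STZ mice were kept in the study when their blood glucose was high in the days after injection, so the group was selected on its response to the toxin. No lipopolysaccharide is named for these samples in the labels. tdTomato-positive cells were sorted from dissociated whole brains, so the label depends on where the Aldh1l1 driver is active and on the purity of the sort.

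Chemokines are small secreted proteins that steer migrating cells by binding receptors coupled to G proteins. In the brain, glia and vessel cells release CXC ligands that attract neutrophils and CC ligands that attract monocytes and lymphocytes, while Cx3cl1, Cxcl12 and Cxcl14 are made in healthy tissue. Many inflammatory chemokine genes are switched on by the transcription factor NF-kB, and Cxcl10 also by interferons. Astrocytes are a known source of several of these ligands during neuroinflammation.

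The ligand genes lie in clusters. In the RefSeq annotation of GRCm38, Cxcl1 (gene 14825, chr5:90891245-90893121) and Cxcl2 (gene 20310, chr5:90903899-90905938) are neighbours 10778 bp apart. Cxcl10 (gene 15945, chr5:92346638-92348889) is farther along the same chromosome. Among the members with a promoter entry, the letters of the kB motif, a binding motif of NF-kB, were found only before Cxcl1, Cxcl2 and Cxcl10. Whether other members are NF-kB targets was not tested. The stretches just upstream of the start sites of Cxcl1, Cxcl2 and Cxcl10 are shown here. Each is read in the direction of transcription on the strand of the gene and ends at the last base before the start. The build is GRCm38.p6 and the sequences are RefSeq's. Capitals mark matches to the kB motif GGGAANNTCC and, in Cxcl10 alone, the upstream capitals mark a match to the interferon-stimulated response element TTTCNNTTTC.
Cxcl1 (chr5:90891135-90891244, plus strand): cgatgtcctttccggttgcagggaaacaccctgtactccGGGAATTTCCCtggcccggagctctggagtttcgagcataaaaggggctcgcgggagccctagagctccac
Cxcl2 (chr5:90903789-90903898, plus strand): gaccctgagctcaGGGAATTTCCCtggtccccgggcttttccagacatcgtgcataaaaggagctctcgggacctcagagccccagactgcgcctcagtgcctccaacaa
Cxcl10 (chr5:92348890-92349119, minus strand): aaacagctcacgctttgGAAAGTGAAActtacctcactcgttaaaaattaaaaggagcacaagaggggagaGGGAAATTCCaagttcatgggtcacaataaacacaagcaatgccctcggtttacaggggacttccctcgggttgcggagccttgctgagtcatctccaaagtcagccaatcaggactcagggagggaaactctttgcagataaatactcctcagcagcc

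Promoter entries were found for 8 of the 10 members; Ccl2 and Ccl4 had none. Each motif was searched on both strands in the 250 bases before the start, and matches may overlap. The kB motif was present in 3 of the 8 windows, against 1.09% of all 32851 promoter windows. In Cxcl1 and Cxcl2 it is read on both strands 1 base apart, from base 71 to base 61 before the start in Cxcl1 and from base 97 to base 87 in Cxcl2, and the longest run of letters that the windows share is GGGAATTTCCCTGG, 14 bases. In Cxcl10 it lies from base 159 to base 150 before the start. The interferon-stimulated response element was present in Cxcl10, from base 213 to base 204, and in Cxcl14, from base 172 to base 163, against 2.98% of all windows. The start used for Cxcl14 lies 260 bp inside the annotated span of the gene, so that window lies within the annotated gene. An exact match to the TATA box letters TATAAA was found only in the Cx3cl1 window, ending at the last base before the start, against 12.4% of all windows. Variants of these letters were not searched, so the other windows may hold them. A match describes these letters and is not evidence of binding.

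The GC content of the 8 windows ranged from 46.8% in Ccl3 to 64.8% in Cx3cl1, against a median of 52.4% over all windows. Cxcl14, Cxcl12 and Cx3cl1 held the most CpG pairs, at 16, 14 and 14, and Ccl3 held the fewest, at 2, where the median window held 6. These 3 members are the ligands described above as made in healthy tissue. Cxcl1 and Cxcl2, at 10 and 9 CpG pairs, were also above the median, and the Cxcl14 window lies within its annotated gene. Whether CpG content goes with that grouping was not tested.

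Total counts per sample ranged from 52529048 to 58749115, and 3 counts corresponded to 0.0511 to 0.0571 CPM (counts scaled to library size). The summed level of 10 astrocyte markers was 14200 to 17200 TPM (transcript counts scaled to length and library) in the vehicle samples and 14400 to 16000 TPM in the STZ samples, and all 10 were detected in every sample. Aldh1l1 itself was at 262 to 369 TPM. Markers of other cells were also present. The choroid plexus and ependymal list summed to 10400 to 29500 TPM in vehicle and 15900 to 26600 TPM in STZ. Nearly all of that came from 1 gene, Ttr (mean 21100 TPM), and the next highest, Folr1, averaged 318 TPM. The microglia list summed to 1010 to 1470 TPM and 995 to 1380 TPM. The oligodendrocyte lineage list summed to 2050, 855 and 791 TPM in vehicle and 2880, 1030 and 1100 TPM in STZ. Neutrophil markers summed to 366, 427 and 2320 TPM in vehicle and 3170, 3280 and 1450 TPM in STZ. Most of it came from S100a8 and S100a9 (means 737 and 751 TPM). Endothelial markers summed to 139, 201 and 455 TPM and to 760, 596 and 432 TPM. Mast cell markers summed to 12.5, 17.6 and 28.9 TPM and to 170, 168 and 77.3 TPM. Vehicle replicate 3 therefore lay nearer to the STZ samples than the other vehicle samples did for neutrophil and endothelial markers. In such bulk samples, fewer cells of a type and less RNA per cell cannot be told apart.

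Cxcl14 was the dominant ligand of the sorted cells. Levels were compared between genes as TPM, which is per transcript length. Cxcl14, a CXC ligand of healthy epithelia and brain, averaged 572 ± 60.1 TPM (SD, n = 6 samples) with a range of 475 to 662 TPM. It ranked 204th of all 45777 genes listed, at percentile 99.1 of the 22337 genes tested. Cx3cl1 (fractalkine), a membrane-anchored ligand that signals to microglia, followed at 20.5 ± 2.48 TPM, percentile 71.2. Ccl4 averaged 10 ± 3.17 TPM and Ccl3 9.38 ± 2.3 TPM; both are macrophage inflammatory proteins that attract monocytes and lymphocytes.

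The remaining ligands were lower. Cxcl12, which retains progenitors and leukocytes through Cxcr4, averaged 8.91 ± 4.06 TPM. Cxcl2, a neutrophil attractant, averaged 8.13 ± 6.23 TPM. Ccl2 (monocyte chemoattractant protein) was at 3.34 ± 1.62 TPM, Cxcl10 (an interferon-induced attractant of activated T cells) at 3.09 ± 1.05 TPM and Ccl22 (a macrophage and dendritic cell product) at 2.24 ± 1.85 TPM. Cxcl1, also a neutrophil attractant, was near the detection limit at 0.203 ± 0.179 TPM, with counts from 0 to 14. The median gene tested was at 5.56 TPM, so 6 members lay above it and 4 below.

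With abundant set as a mean of at least 10 TPM, a level that 9083 genes of the table reached, 3 members were abundant, namely Cxcl14, Cx3cl1 and Ccl4. Ccl4 lay just inside the limit and Ccl3 just outside, and they differed by less than their spread (exact p 0.5, higher in 4 of 6 samples). At a limit of 5 TPM 6 members were abundant. In FPKM, the other per-length unit, the members had the same order but lower values. Cx3cl1 averaged 8.87 FPKM and Ccl4 4.33 FPKM. A limit of 10 FPKM is therefore stricter than 10 TPM, and 1 member (Cxcl14, 247 FPKM) reached it. The smallest p that the exact paired permutation test over 6 samples allows is 0.0312, and it was reached by 3 of the 9 neighbouring pairs in the order of levels, each with the same direction in 6 of 6 samples. These were Cxcl14 above Cx3cl1 (28.0-fold), Cx3cl1 above Ccl4 (2.05-fold) and Ccl22 above Cxcl1 (11-fold), and their adjusted p was 0.0936. From Ccl4 down to Ccl22, no neighbouring pair reached that p (exact p from 0.0625 to 1, two-sided), and Cxcl2 was above Ccl2 in 5 of 6 samples. The ranges of ligands farther apart can be separate: the lowest Ccl4 and Ccl3 values, 6.93 and 6.81 TPM, were above the highest values of Ccl2, Ccl22 and Cxcl10, 5.91, 5.55 and 4.7 TPM. Pairs that are not neighbours were not tested. Neighbours were set by the order of these same values. With 9 pairs, a few at the smallest p cannot reach an adjusted p under 0.05, so the adjusted values do not decide the order.

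**Figure D1:**
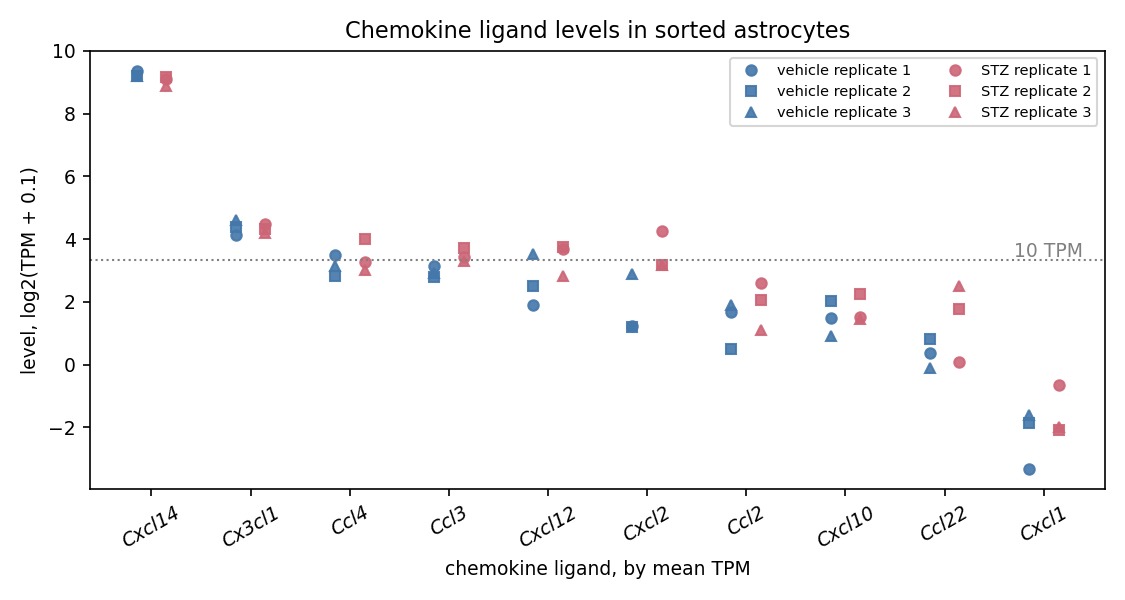
Level of each of the 10 ligands in each of the 6 samples, as log2(TPM + 0.1) on the vertical axis, ordered by mean TPM. Blue marks are vehicle and red marks STZ samples, the shape gives the replicate, and the dotted line is 10 TPM; Cxcl14 stands far above the line in every sample, and neighbouring ligands from Ccl4 to Ccl22 overlap in range.

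Among all 40 chemokine ligands found in the table, Cxcl14 ranked 1st and Cx3cl1 3rd by mean TPM. Ccl6, a myeloid CC ligand that is not a member, ranked 2nd at 66.1 TPM. Ccl4 ranked 8th, Ccl3 9th, Cxcl12 11th, Cxcl2 12th, Ccl2 19th, Cxcl10 20th, Ccl22 22nd and Cxcl1 35th. The members made up 73.1% to 85.3% of all ligand TPM per sample. Cxcl14 was 93.0%, 92.2% and 89.9% of the members' TPM in the vehicle samples and 86.8%, 87.4% and 88.4% in the STZ samples, and the groups did not overlap. The members without Cxcl14 summed to 50.1, 49.2 and 65.7 TPM in vehicle and 84.3, 83.2 and 62.2 TPM in STZ, where STZ replicate 3 fell below vehicle replicate 3.

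For the comparison of groups, edgeR's quasi-likelihood test was fitted to all genes that had counts in the 6 samples. A gene passed when its fold change exceeded 1.5 and its Benjamini-Hochberg adjusted p was under 0.05. Of the 10 members, 9 were tested, and Cxcl1 was not because it had no count in vehicle replicate 1. None of the 9 passed in edgeR; 3 of the 9 had an unadjusted p under 0.05 and DESeq2 called 1. Over all genes 0.0224% passed in edgeR, 0.00895% higher and 0.0134% lower in STZ. With DESeq2, Cxcl2 passed, where the background was 1.05% of genes in either direction and 0.654% higher in STZ. The 3 members at an unadjusted edgeR p under 0.05 were Cxcl2, Ccl3 and Ccl22, all higher in STZ, against 11.3% of all genes in either direction, 5.63% higher and 5.65% lower. The groups did not overlap for 3 of the 9, against 18.5% of all genes. STZ lay above vehicle for Cxcl2 and Ccl3 (8.64% of genes) and below it for Cxcl14 (9.85% of genes). The log2 fold change was positive for 7 of the 9 members, against 51.9% of all genes, and its median was 0.50, against 0.01.

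**Figure D2:**
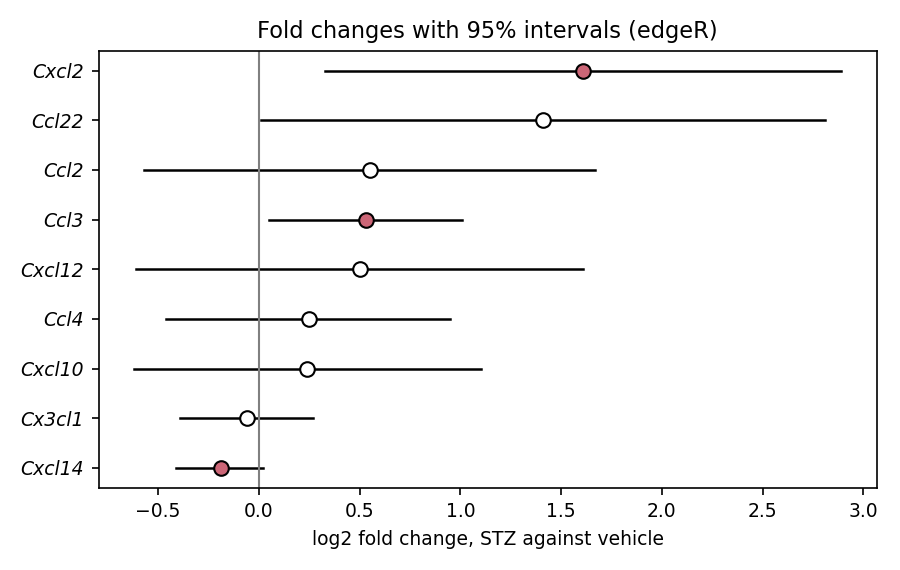
Log2 fold change of each of the 9 tested ligands (horizontal axis, STZ against vehicle) with its 95% interval from edgeR, ordered by size. Filled points are ligands whose groups do not overlap; the intervals of Cxcl2, Ccl22 and Ccl3 lie above 0 before adjustment, and the other 6 span it.

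With all samples included, Cxcl2 had the largest log2 fold change among the tested members, although that of Ccl22 was larger without vehicle replicate 1 (1.38 against 1.31), vehicle replicate 2 (1.67 against 1.31) or STZ replicate 1 (1.85 against 1.16). Its normalized CPM (counts scaled to the TMM-adjusted library size) was 1.10, 1.12 and 3.77 in the vehicle samples and 9.38, 4.45 and 4.49 in the STZ samples, from 59, 58, 216 and 569, 259, 264 counts. Every STZ sample lay above every vehicle sample, but vehicle replicate 3 was closer to the lower STZ samples than to the other vehicle samples. Group means were 2.0 ± 1.54 CPM in vehicle and 6.11 ± 2.84 CPM in STZ (SD, n = 3 each), and the log2 fold change was 1.61 with SE 0.55 and a 95% interval of 0.33 to 2.89. The adjusted p was 0.365 with edgeR and 0.0287 with DESeq2. Leaving out 1 sample at a time moved the log2 fold change between 1.16 and 2.45, and the highest value came without vehicle replicate 3 (adjusted p 0.195 with edgeR). The neutrophil and endothelial marker sums were likewise higher in vehicle replicate 3 than in the other vehicle samples. Unlike Cxcl2, both sums were higher there than in STZ replicate 3 (2320 against 1450 TPM and 455 against 432 TPM). The part of either cell type in the Cxcl2 difference was not tested.

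Cxcl1, the neighbour of Cxcl2, gave 0, 5 and 6 counts in the vehicle samples and 14, 4 and 5 counts in the STZ samples. Only STZ replicate 1 stood apart, and the groups overlapped. Fitted without the filter, its log2 fold change was 0.91 with SE 1.08 and a 95% interval of -1.56 to 3.38. No difference was detectable at 11 against 23 counts in all. The kB match that it shares with Cxcl2 thus stood before a gene close to the detection limit.

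Ccl3 and Ccl4 lie side by side on chromosome 11 (Ccl3, gene 20302, chr11:83647843-83649378; Ccl4, gene 20303, chr11:83648624-83664683), and their annotated spans overlap by 755 bp. No source says whether the counting used strand, which leaves the origin of reads in the overlap uncertain. Ccl3 was at 3.08, 2.51 and 2.79 normalized CPM in vehicle and at 3.81, 4.74 and 3.57 in STZ. Its groups were separate, and its spread was small, 10.2% of the mean in vehicle and 15.3% in STZ, where counting alone would give 8.12% and 6.47%. For Ccl3 the log2 fold change was 0.53 with SE 0.207, a 95% interval of 0.05 to 1.01, an unadjusted p of 0.0343 and an adjusted p of 0.407 with edgeR.

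Ccl4, in contrast to Ccl3, overlapped between groups, at 3.53, 2.27 and 3.32 normalized CPM in vehicle and 3.0, 5.05 and 2.77 in STZ. STZ replicate 2 was the only sample above the vehicle range. Ccl4 had a log2 fold change of 0.25 with a 95% interval of -0.46 to 0.95 and an adjusted p of 0.794 with edgeR, and without STZ replicate 2 it was -0.07. Whether Ccl3 and Ccl4 responded differently was not tested. Summed over both genes, an alternative chosen after seeing the data, the log2 ratio of the group means was 0.39.

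Ccl2 (gene 20296, chr11:82035577-82037452, next to Ccl7 at a distance of 8260 bp) was at 1.12, 0.501 and 1.40 normalized CPM in the vehicle samples and at 2.16, 1.51 and 0.766 in the STZ samples. STZ replicates 1 and 2 lay above the vehicle range and STZ replicate 3 within it. Its log2 fold change was 0.55 with SE 0.481, a 95% interval of -0.57 to 1.67 and an adjusted p of 0.69 with edgeR.

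Ccl22 (gene 20299, chr8:94745684-94751388), which binds Ccr4 on regulatory and helper T cells, split the STZ group. It was at 0.988, 1.39 and 0.716 normalized CPM in vehicle, and at 0.775, 2.75 and 4.70 in STZ. STZ replicate 1 lay inside the vehicle range and the other STZ samples above it. The spread in STZ was 71.6% of the mean where counting alone would give 7.88%, so depth was not its limit. For Ccl22 the log2 fold change was 1.41 with SE 0.6 and a 95% interval of 0.01 to 2.81, and the adjusted p was 0.441 with edgeR and 0.178 with DESeq2. Without STZ replicate 3 it was 0.77, and without STZ replicate 1 it was 1.85 (adjusted p 0.61 and 0.491).

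Cxcl10 overlapped between groups, at 1.36, 2.02 and 0.943 normalized CPM in vehicle and 1.37, 2.39 and 1.34 in STZ. STZ replicate 2 lay above the vehicle range and vehicle replicate 3 below the STZ range. Its log2 fold change was 0.24 with a 95% interval of -0.62 to 1.10 and an adjusted p of 0.839 with edgeR, and it was -0.09 without STZ replicate 2. Its annotated span lies within that of Art3, a more abundant gene by counts (mean 384 counts against 88.8), for which the log2 fold change was 0.28 with an adjusted p of 0.717. Reads of Art3 counted to Cxcl10, or the reverse, cannot be told apart here.

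**Figure D3:**
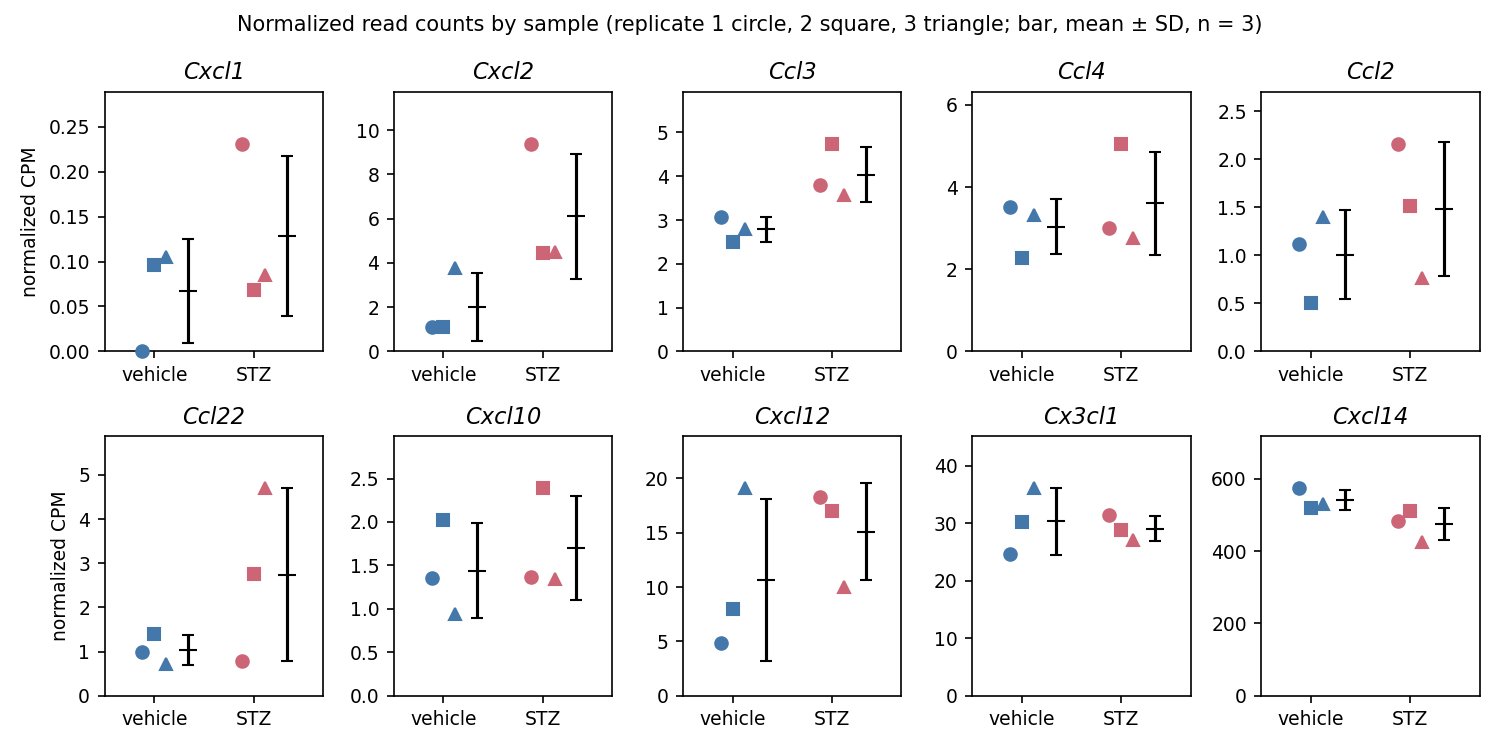
Normalized CPM (vertical axes, each from 0 and with its own scale) of the 10 ligands in the vehicle (blue) and STZ (red) samples; circle, square and triangle are replicates 1, 2 and 3, and the bars give the mean ± SD of 3 samples. The groups are separate for Cxcl2, Ccl3 and Cxcl14, while in Ccl22 and Cxcl12 1 or more samples of a group lie among those of the other.

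Among the ligands of healthy tissue, Cxcl14 and Cx3cl1 had narrow intervals and Cxcl12 a wide one. Cxcl14 (gene 57266, chr13:56288643-56296811) was at 574, 520 and 530 normalized CPM in vehicle and 484, 512 and 425 in STZ. Every STZ sample lay below every vehicle sample, though STZ replicate 2 lay close to vehicle replicate 2. The mean went from 541 ± 28.2 to 474 ± 44.4, a log2 fold change of -0.19 with SE 0.0931, a 95% interval of -0.41 to 0.02 and an adjusted p of 0.486 with edgeR. The interval bounds the difference to less than the 1.5-fold threshold. Aldh1l1, the driver of the label, had a log2 fold change of -0.22 (adjusted p 0.398 with edgeR) with separate groups. The 10 astrocyte markers were mixed, with 4 positive and a median of -0.11. In separate groups, STZ lay below vehicle for 3 and above it for 1, against 9.85% and 8.64% of all genes. The 3 were Aldh1l1, Aqp4 (-0.48, adjusted p 0.28 with edgeR and 0.0169 with DESeq2) and Slc1a2 (-0.11, 0.667 and 0.685). Gjb6 (0.27) was the 1 with STZ above vehicle. The part of the astrocyte share in the Cxcl14 difference was not tested.

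Cx3cl1 (gene 20312, chr8:94772180-94782427) was at 24.6, 30.2 and 36.1 normalized CPM in vehicle and 31.4, 28.8 and 27.0 in STZ. The STZ samples all lay inside the vehicle range. Its log2 fold change was -0.06 with a 95% interval of -0.39 to 0.27 and an adjusted p of 0.9 with edgeR, so a change of more than 1.5-fold lay outside the interval in either direction. It was 0.07 without vehicle replicate 3. The end of the gene overlaps the noncoding gene Gm51543 by 1327 bp.

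Cxcl12 (gene 20315, chr6:117168535-117181368) was at 4.83, 8.02 and 19.1 normalized CPM in vehicle and 18.3, 17.0 and 10 in STZ. Vehicle replicate 3 was the highest of all samples, and the other vehicle samples were the lowest. The log2 fold change was 0.50 with SE 0.475, a 95% interval of -0.61 to 1.61 and an adjusted p of 0.718 with edgeR. Without vehicle replicate 3 it was 1.22 with an unadjusted p of 0.00863 and an adjusted p of 0.261. The endothelial marker sum was also higher in vehicle replicate 3 than in the other vehicle samples, and all 14 of its genes had positive log2 fold changes; their part in the Cxcl12 values was not tested.

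For members that varied across the 6 samples (SD over 0.5 in log2 CPM), the 3 genes with the most similar profile were found among 16243 genes with a mean of at least 1 CPM, by the root mean square difference of centred log2 CPM. The nearest to Cxcl2 were She (0.134), C130074G19Rik (0.169) and Clec14a (0.194), and Clec14a is a surface protein of endothelial cells. Those nearest to Cxcl12 were Thbd (0.101), which encodes the endothelial anticoagulant receptor thrombomodulin, 1600029I14Rik (0.119) and Dnah5 (0.124), an axonemal dynein of motile cilia. To Ccl2 they were C5ar2 (0.127), F13a1 (0.176) and Emilin2 (0.181). F13a1 is also on the border macrophage list, but it was the only 1 of the 7 genes there with a positive log2 fold change (0.73, list median -0.62).

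The profile of Ccl22 had no close match, and its nearest genes were Gm21992 (0.35), Ccl17 (0.471) and LOC115487474 (0.585). Ccl17 is the other ligand of Ccr4, and it lies 57991 bp from Ccl22 on chromosome 8 with Cx3cl1 between them. Ccl17 was at 0.802, 0.963 and 0.628 normalized CPM in vehicle and 0.676, 2.80 and 1.74 in STZ. As with Ccl22, STZ replicate 1 was inside the vehicle range and STZ replicates 2 and 3 were above it. The log2 fold change of Ccl17 was 1.12 with SE 0.494 and an adjusted p of 0.456 with edgeR. These likenesses over 6 samples are descriptions, since all genes share the same libraries.

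**Figure D4:**
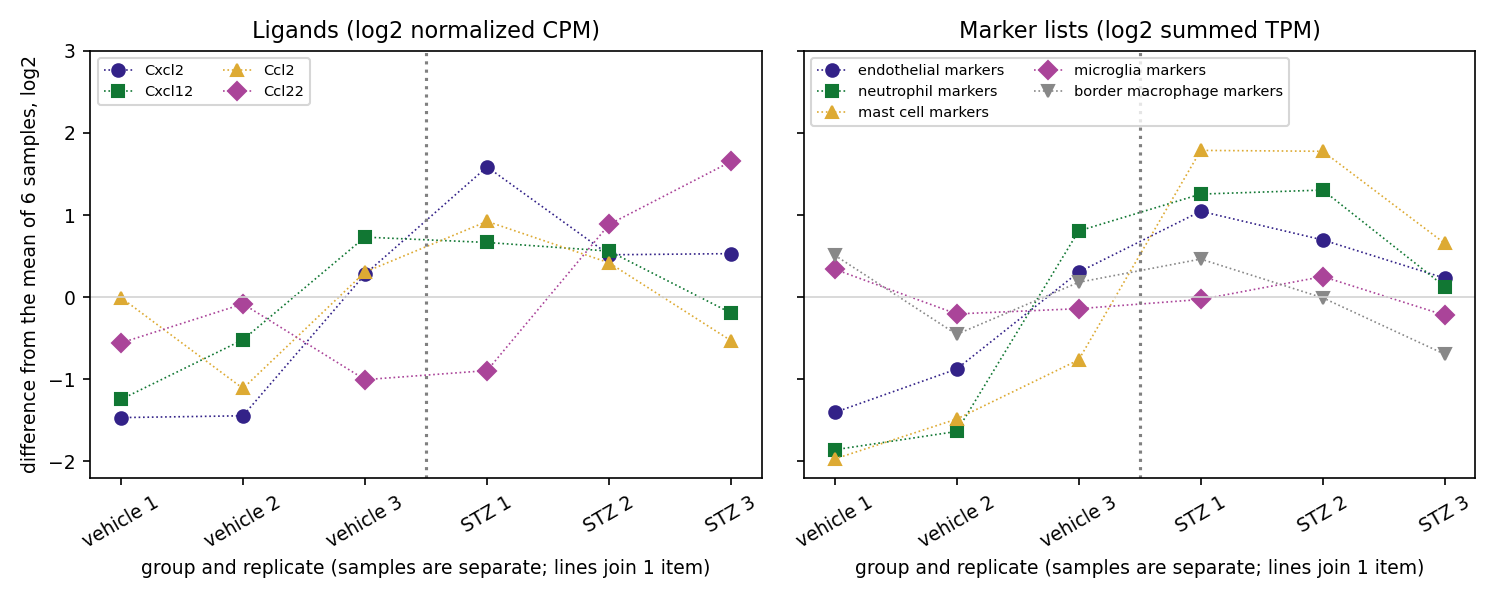
Difference of each item from its own mean over the 6 samples on the log2 scale (vertical axis), for 4 ligands (left, normalized CPM) and 5 marker lists (right, summed TPM), by sample (horizontal axis). Cxcl2 and Cxcl12 lie above their mean in vehicle 3 and STZ 1 and below it in vehicle 1 and 2, as do the endothelial and neutrophil sums, while Ccl22 lies below its mean in vehicle 3 and STZ 1.

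The receptors were also measured. Of 19 signalling chemokine receptors, 12 were tested and none passed in edgeR or DESeq2; 8 had positive log2 fold changes, 1 had an unadjusted edgeR p under 0.05 in each direction, and the median was 0.21. Cx3cr1, the microglial receptor of Cx3cl1, was at 34.3 TPM, and its log2 fold change was -0.25 (adjusted p 0.684). Ccr2, the receptor of Ccl2, was at 16.9 TPM with a log2 fold change of 0.68 (adjusted p 0.428). Ccr10 had a log2 fold change of -0.69 (adjusted p 0.426) and Cxcr4, the receptor of Cxcl12, 0.48 (adjusted p 0.465). In separate groups, STZ lay above vehicle for 2 (Ccr2 and Cxcr4) and below it for 1 (Ccr10), against 8.64% and 9.85% of all genes. Over all genes, 5.63% were higher and 5.65% lower at an unadjusted edgeR p under 0.05.

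Of 5 atypical receptors, most of which bind chemokines without classical signalling, 3 were tested and none passed in either tool or had an unadjusted p under 0.05. Ackr3, which binds Cxcl12, was at 59.7 TPM with a log2 fold change of 0.01 (adjusted p 0.986). Ccrl2 and Ackr4 had log2 fold changes of 0.36 and -0.36 (adjusted p 0.585 and 0.757). Of the 3 chemokine-cleaving proteases, none passed in either tool. An unadjusted edgeR p under 0.05 was found for 1, lower in STZ, against 5.65% of all genes. Adam17 and Adam10, which shed Cx3cl1 from the membrane, had log2 fold changes of -0.25 and -0.19 (adjusted p 0.356 and 0.492). STZ lay below vehicle in separate groups for both, against 9.85% of all genes. Dpp4, which trims the start of Cxcl10 and Cxcl12, had 0.04 (adjusted p 0.975).

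Among the other chemokine ligands, 21 of the 30 found were tested and none passed in edgeR or DESeq2. The log2 fold change was positive for 11 of them, with a median of 0.06. An unadjusted edgeR p under 0.05 was found for 1, higher in STZ, against 5.63% of all genes. That was Ccl21b, a ligand of Ccr7, with a log2 fold change of 0.70 (adjusted p 0.349), which has near-identical copies so that its reads are uncertain. Ccl8, a monocyte attractant, had 2.03 with SE 0.903 (adjusted p 0.461). Ccl8 was at 0.336, 0.694 and 0.733 normalized CPM in vehicle and 4.01, 3.04 and 0.17 in STZ, so STZ replicate 3 lay below every vehicle sample.

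The pathways upstream of the inflammatory ligands were counted in the same fit, and edgeR called 0 genes of each list. Of 20 tested NF-kB genes, 15 had positive log2 fold changes (median 0.12), 5 had an unadjusted p under 0.05, all higher in STZ, and DESeq2 called 2. Over all genes, 5.63% were higher in STZ at that edgeR p and DESeq2 called 0.654% higher. Nfkbia, the inhibitor that NF-kB induces, was at 109 ± 12.8 normalized CPM in vehicle and 184 ± 34.7 in STZ, a log2 fold change of 0.76 (adjusted p 0.195 with edgeR and 0.000412 with DESeq2). Tnf, a cytokine that activates NF-kB, was at 0.687 ± 0.234 and 2.55 ± 0.927 normalized CPM, a log2 fold change of 1.88 (adjusted p 0.218 and 0.000866). Nfkbib had 0.30 (adjusted p 0.302 and 0.195). The groups of these 3 genes, named for having the smallest p on the list, did not overlap. On the whole list STZ lay above vehicle for 5 of 20 genes and below it for 1, against 8.64% and 9.85% of all genes.

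Of 17 tested interferon pathway genes, 13 had positive log2 fold changes (median 0.11). An unadjusted edgeR p under 0.05 was found for 3, all higher in STZ (5.63% of all genes). DESeq2 called 3 (0.654% of all genes higher in STZ). These were the interferon-induced genes Rsad2 (log2 fold change 0.70, adjusted p 0.307 with edgeR and 0.0408 with DESeq2), Isg15 (1.51, 0.329 and 0.0426) and Ifit1 (0.93, 0.35 and 0.0497). Cxcl10 was not among them. Of 16 immediate-early and dissociation-stress genes, 11 had positive log2 fold changes (median 0.28). An unadjusted p under 0.05 was found for 6, all higher in STZ, and DESeq2 called 2, against the same shares of all genes. Dusp1 had a log2 fold change of 0.79 (adjusted p 0.289 and 0.00635), Ier3 1.14 (0.301 and 0.00619) and Zfp36 0.65 (0.347 and 0.057). These genes respond to tissue dissociation as well as to signalling, and their part in the ligand differences was not tested.

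The marker lists of other cells were counted in the same way, and edgeR called none of their genes. All 6 mast cell markers and all 14 endothelial markers had positive log2 fold changes, with medians of 2.65 and 1.2, against 51.9% of all genes positive. For 5 and 8 of them every STZ sample lay above every vehicle sample, against 8.64% of all genes. All 8 neutrophil markers were positive with a median of 1.31 but no separate groups. The monocyte and dendritic cell list had 7 of 8 positive and a median of 0.46, and summed to 66.3 to 124 TPM in vehicle and 101 to 208 TPM in STZ. The microglia list had 4 of 12 positive and a median of -0.03, and the border macrophage list 1 of 7 and a median of -0.62. Pericyte and smooth muscle markers had 7 of 8 tested positive and a median of 0.95, and the T and NK cell list 1 of 4 and -0.60. Medians of the fibroblast, oligodendrocyte lineage, neuron, choroid plexus and ependymal, and astrocyte lists were -0.11, 0.21, 0.07, -0.25 and -0.11. At an unadjusted edgeR p under 0.05 were 12 endothelial, 6 mast cell, 4 pericyte and smooth muscle, 2 monocyte and dendritic cell and 1 neutrophil marker, all higher in STZ, and 3 border macrophage markers and 1 T and NK cell marker, all lower. Of the astrocyte list 1 was higher and 2 were lower at that p. Over all genes 5.63% were higher and 5.65% lower at that p, and DESeq2 called 0.654% higher. DESeq2 called 2 endothelial, 4 mast cell and 4 pericyte and smooth muscle markers higher, among them Tagln (log2 fold change 2.65, adjusted p 0.0723 with edgeR and 7.27e-17 with DESeq2) and Acta2 (1.3, 0.098 and 1.6e-11), and 1 border macrophage marker lower, Mrc1 (-0.82, 0.318 and 0.0329). No marker on these lists was at 0 in all samples. Which cells gave the reads of each ligand was not tested.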

How the data were processed

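RNA sequencing of sorted tdTomato-positive cells was analysed for 3 vehicle and 3 STZ samples, grouped by their titles. The 10 ligands, the gene lists and the tests were chosen with earlier results of these data known. The authors aligned polyA reads (SMART-Seq libraries) to mm10; the submitters' processing notes name bcl2fastq 2.20.0, Trimmomatic 0.38, HISAT2 2.1.0, SAMtools 1.9 and StringTie 2.1.3b. Deposited per gene are raw read counts (whole numbers), and TPM and FPKM values in which the authors divided by transcript length. The annotation and the use of strand in counting are not given in the sources used here.

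Of 45777 genes listed, the 22337 counted in every sample entered the edgeR fit (version 4.0.16 under R 4.3.3, quasi-likelihood with TMM, group as the only factor, two-sided, Benjamini-Hochberg adjusted over all genes), with 95% intervals of the log2 fold change. The study's filter and threshold were used; the study names DESeq2, which was run as version 1.42.0 as an alternative, along with other filters and size factors, limma 3.58.1 on log2(TPM + 1) and log2(TPM + 0.1), the replicate number as a block, and leaving out each sample. A separate group means that no value lies within the other group's range of normalized CPM. Orders of levels were tested by exact paired permutation on log2(TPM + 0.1). The procedure was tested on simulated data. Named genes are the members, at most 3 genes per list with the smallest edgeR p, listed markers and nearest profiles; Art3, Gm51543 and Ccl7 (named for position), Ccl6, Ccl27a, Pf4 and Ccl9 (named for level) and ligands at 0 fall outside that rule and were chosen after their values were seen. No pair of samples agreed within counting noise (chi-square 17.22 to 88.7 per gene). Counting error alone would give a CV of 0.583% for Cxcl14 in vehicle but 52.2% for Cxcl1, and counting limits cover only that error.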

Additional observations from a re-analysis of the deposited data

How the results depend on the processing

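Of 120 alternative values of the members' log2 fold changes, 115 kept their direction and their side of the threshold. DESeq2 brought Cxcl2 past it (1.61, adjusted p 0.0287), so that 1 member passed, and no other alternative called a member. The reversed values were Cxcl10 without vehicle replicate 3 (-0.0042) and without STZ replicate 2 (-0.09), Cx3cl1 without vehicle replicate 3 (0.07) and Ccl4 without STZ replicate 2 (-0.07). Leaving out 1 sample moved the log2 fold change of Cxcl2 from 1.16 to 2.45, of Ccl22 from 0.77 to 1.85, of Cxcl12 from 0.15 to 1.22, of Ccl2 from 0.18 to 0.86, of Ccl3 from 0.40 to 0.61, of Cxcl10 from -0.09 to 0.55, of Cx3cl1 from -0.19 to 0.07, of Ccl4 from -0.07 to 0.40 and of Cxcl14 from -0.25 to -0.12.

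Over all genes edgeR called 5, DESeq2 234 (146 higher, 88 lower), edgeR with DESeq2's size factors 5, without a filter 7 and with filterByExpr 7. Limma called 0 with either pseudocount, and leaving out 1 sample gave 0 to 1. Of 92 listed pathway genes edgeR called 0 and DESeq2 7. Abundant members numbered 3, 1 in FPKM, 6 at 5 TPM, and 2 to 3 when 1 sample was left out. The cause of these differences was not tested.

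Blocking on replicate number left 0 genes called by edgeR and no member. Same-numbered samples did not deviate together (correlations -0.101, -0.162 and -0.184), and no sample correlated best with the one of its own number. Whether same-numbered samples shared a sort day or batch cannot be told from these values. With 3 samples per group, intervals such as that of Ccl2 allow changes in either direction.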

Other observations

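Ccl6, the most abundant ligand outside the members, was at 32.6 normalized CPM on average in vehicle and 54.8 in STZ, a log2 fold change of 0.75 (adjusted p 0.565 with edgeR) with overlapping groups. Ccl27a, a skin-associated ligand of Ccr10, was nearly constant across the 6 samples, from 14.4 to 15.9 TPM. The listed platelet chemokine Pf4 was at 6.44 to 16.6 TPM and Ccl9, a myeloid ligand, at 6.08 to 20.2 TPM. Ccl1, Ccl20, Ccl26 and Cxcl15 were at 0 counts in all samples.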
